A study of Mus musculus with 2 samples.

Results

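The kinesin motor family was followed in colonies grown from mouse mammary basal cells with and without tumour necrosis factor α (TNF-α). Members were the genes whose symbol is Kif followed by a number and at most 1 letter a to c, or Kifc followed by a digit, and 40 of the 49492 genes in the count table fit that rule. By their known roles, 13 of them act in cell division, 15 carry cargo, 6 belong to cilia and 6 have other roles. With TNF-α, the division kinesins had a higher share of the counts (12 of the 12 with enough counts to compare), while 11 of the 15 cargo kinesins had a lower share. Of all genes compared, 50.6% were higher and 49.4% lower.

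The cells came from the mammary glands of wild-type adult female mice, were sorted as lineage-negative CD24+CD29hi cells and formed colonies in 3D Matrigel culture, labelled as 10 days for both groups. There was 1 control library, from untreated cultures, and 1 TNF library, from cultures that received TNF-α at 10 ng/mL, a cytokine released by macrophages among other cells. The comparison asks how gene expression in basal cell colonies differs when that cytokine is present. No difference has a replicate check, so no p-value is given, and each interval below covers counting error in these 2 libraries and not the spread between cultures or mice.

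Kinesins are motor proteins that use ATP to walk along microtubules or to take microtubule ends apart. Division kinesins build the mitotic spindle, move and align chromosomes and help to separate the daughter cells, and the messages of many of them are made mainly in the G2 and M phases of the cell cycle. Cargo kinesins carry vesicles, organelles and RNA, mostly away from the cell centre, and are used by dividing and resting cells alike. Cilium kinesins act in the cilium, a microtubule-based projection of the cell surface.

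Depth was 44462275 read counts for control cells and 53487087 for TNF-treated cells. The log2 ratio of TNF to control was taken from CPM (counts scaled to a fixed library total) after TMM scaling, which corrects for library size and composition, for the 20771 genes with at least 10 counts over both libraries; its median over these genes was 0.0038, so a ratio near 0 is the level of the typical gene. Levels are given as RPKM, CPM per kilobase of exon, which allows genes of different length to be compared. The treatment check gave 6 of 6 TNF response genes higher with TNF-α, against 50.6% of all genes. They ranged from Cxcl1 (log2 ratio 0.68) to Ccl2 (5.71). Tnfaip3, a feedback inhibitor of NF-κB, had 743 counts in the control and 4875 with TNF-α. All 8 basal markers were detected in both libraries, with Krt14 at 5155 CPM in the control and 4871 CPM with TNF-α and Krt5 at 2456 and 2752 CPM. The 8 leukocyte markers summed to 8.24 CPM in the control and 6.54 CPM with TNF-α, with Cd3e at 0 counts in both libraries and Adgre1 at 0 and 2 counts, and the 7 markers of fibroblasts and endothelium summed to 378.7 and 412.0 CPM, most of it Col1a1 and Col1a2.

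Of the 40 kinesins, 37 had at least 10 counts. Kif2b, a microtubule depolymerase of the spindle, and Kif12 had 0 counts in both libraries, which allows up to 0.0675 CPM in the control and 0.0561 CPM in the TNF library. These bounds would be higher if both ends of a read pair were counted. Kif19a, a cilium kinesin, had 0 counts in the control and 4 with TNF-α. Among the 37, TNF-treated cells had 4 at more than 2-fold the control level (Kif26a, Kif4, Kif5c and Kif23), where 8.56% of all genes compared were that much higher, and 2 were more than 2-fold lower (Kif27 and Kif5a), against 6.62% of all genes. At that fold the family as a whole sat near the background, and most division kinesins lay between 1.5-fold and 2-fold. At 1.5-fold, 11 of the 12 division kinesins were higher, against 15.5% of all genes and 2 of the 25 other kinesins.

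**Figure D1:**
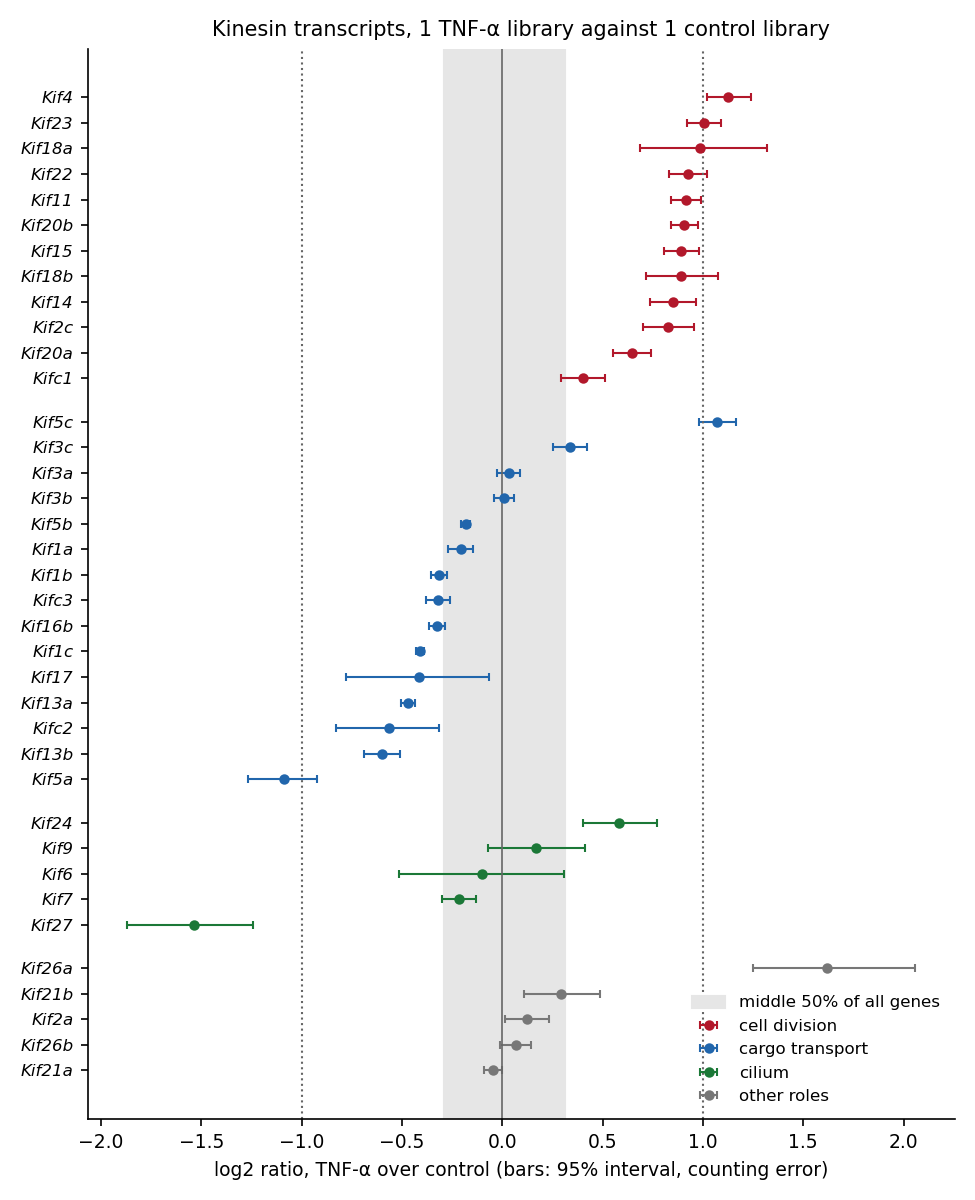
Log2 ratio of TNF to control for each of the 37 kinesins compared, grouped by role; points are single ratios of 2 libraries and bars are 95% intervals for counting error only, the grey band (-0.29 to 0.31) holds the middle 50% of all genes and dotted lines mark 2-fold. All 12 division kinesins lie above 0, from 0.40 (Kifc1) to 1.13 (Kif4), while cargo kinesins lie mostly below 0, with Kif5c and Kif5a at opposite ends.

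The division kinesins were higher with TNF-α in 12 of 12 cases, where 50.6% of all genes were higher. The median of their log2 ratios was 0.90 (1.87-fold). Every interval lay above 0, also when counts were halved to allow for both ends of a read pair having been counted. Of the 20771 genes compared, 5994 had an interval above 0, and 4714 had one with halved counts. The summed level of the division kinesins was 61.7 RPKM in the control and 110.6 RPKM with TNF-α. In a bulk library, more cells in division and more kinesin RNA in each dividing cell cannot be told apart.

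Motors that hold spindle poles apart were higher. Kif11, also called Eg5 (chr19:37376403-37421859, GRCm38), slides apart microtubules that run in opposite directions, and it had 2111 counts in the control and 4773 with TNF-α, a log2 ratio of 0.92 (95% interval 0.84 to 0.99). Kif15, which can stand in for Kif11 once a spindle has formed, had 1499 and 3331 counts, a log2 ratio of 0.89 (0.80 to 0.98). The intervals of both motors overlapped, so these libraries did not tell their ratios apart.

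The motor that works against them had the lowest ratio of the group. Kifc1 (HSET) walks towards the minus end, draws spindle poles together and had 1139 counts in the control and 1801 with TNF-α, a log2 ratio of 0.40 (0.29 to 0.51). Its interval lay wholly below those of all 11 other division kinesins. With halved counts it reached 0.56 and overlapped the intervals of Kif20a (from 0.51) and Kif18a (from 0.55). Kifc1 has a near-identical copy, Kifc5b, and reads could be split between them; Kifc5b had 594 and 994 counts, a log2 ratio of 0.48 (0.33 to 0.63).

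Chromosome-bound motors gave the highest ratio of the group. Kif4 condenses chromosomes and, at the midzone, works with Prc1; it had 944 counts in the control and 2471 with TNF-α, a log2 ratio of 1.13 (1.02 to 1.24). Its interval lay wholly above those of 8 of the 11 other division kinesins. With halved counts the interval of Kif4 began at 0.97, and only those of Kif20a and Kifc1 lay wholly below it. Of the exon bases of Kif4, 15.1% are shared with Pdzd11 on the opposite strand (261 and 508 counts). Whether counting used the strand is not given in the sources used here. Kif22 (Kid), which pushes chromosome arms away from the poles, had 1314 and 2987 counts, a log2 ratio of 0.92 (0.83 to 1.02).

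Kinesins that shorten microtubules or slow their growth were higher as well. Kif18a limits the swinging of chromosomes at the spindle equator, and at 120 control and 287 TNF counts, a log2 ratio of 0.99 (0.69 to 1.32), it lay just under 2-fold with the widest interval of the group. Kif18b, which trims the astral microtubules, had 374 and 832 counts (log2 ratio 0.89, 0.72 to 1.07). Kif2c (MCAK), which removes wrongly attached microtubules from kinetochores, had 754 and 1602 counts (log2 ratio 0.83, 0.70 to 0.95). Among the division kinesins, only the intervals of Kif4, above Kif2c, and of Kifc1, below all 3, stood apart from theirs. With halved counts Kif4 (from 0.97) overlapped Kif2c (to 1.01), and Kifc1 (to 0.56) overlapped Kif18a (from 0.55).

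Cytokinesis kinesins ranged more widely. Kif23 (MKLP1, chr9:61915905-61946774), which forms the centralspindlin complex with Racgap1, had 1669 counts in the control and 4011 with TNF-α, a fold of 2.01 (1.90 to 2.13). Kif20b, which acts late in abscission, had 2575 and 5784 counts (log2 ratio 0.91, 0.84 to 0.98), and Kif14, which binds Prc1 and citron kinase, had 902 and 1947 (log2 ratio 0.85, 0.74 to 0.97). Kif20a (MKLP2), which brings Aurkb to the midzone, had a lower ratio of 0.64 (0.55 to 0.74) from 1337 and 2504 counts, below the intervals of 6 of the 11 others. With halved counts its interval (0.51 to 0.78) also overlapped those of Kif15 (from 0.77) and Kifc1 (to 0.56). Of the exon bases of Kif20a, 33.2% are shared with Cdc23 on the opposite strand, a gene with 4590 control and 5325 TNF counts, so the ratio of Kif20a is uncertain where counting did not use the strand. Without the 5 that share any exon base with another gene or have a near-identical copy, 7 division kinesins remained, with a median log2 ratio of 0.89.

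Markers of cell types moved beside these kinesins. The 8 luminal markers were all lower with TNF-α, with a summed level of 3472 CPM in the control and 2498 CPM with TNF-α, and Pgr, the progesterone receptor, had 7228 and 2970 counts. Of the 8 basal markers, 5 were lower, against 49.4% of all genes, and the 8 had a summed level of 11770 and 10770 CPM. The 5 were the contractile genes Myh11 (log2 ratio -0.52), Cnn1 (-0.74) and Acta2 (-0.20), the oxytocin receptor Oxtr (-1.19) and Krt14 (-0.08). The other 3 were above 0: the contractile gene Mylk (log2 ratio 0.18, 0.14 to 0.22), Krt5 (0.16) and Trp63 (0.03, -0.01 to 0.07). Of the 7 markers of fibroblasts and endothelium, Dcn, a fibroblast proteoglycan, was past 2-fold higher, with 184 counts in the control and 582 with TNF-α (log2 ratio 1.39, 1.16 to 1.65), and the other 6 ranged from -0.30 to 0.22. The part of these shifts in the ratios of the division kinesins was not tested.

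The promoters of the division kinesins are shown because most of them share a short element near the start site. Promoter windows of 300 bases, from 250 before to 50 after each annotated start, were taken from RefSeq (GRCm38.p6), where 32 of the 40 kinesins matched with 36 windows, including 12 of the 13 division kinesins with 1 window each. Windows were searched on both strands for TTTGAA, which spells of the cell cycle homology region (CHR), an element known to bind the DREAM and MuvB complexes in genes of the G2 and M phases, and for CCAAT, the box bound by NF-Y. These motifs were chosen after the ratios were known. Stretches of 120 bases around the start, 80 before and 40 after, follow for 8 division kinesins with a CHR match within 50 bases of the start and for Kif18a, which had none; coordinates are GRCm38, sequences run 5′ to 3′ along the gene, and capitals mark CHR and CCAAT letters on either strand, so that a match on the opposite strand appears as its reverse complement.
Kif11 (chr19:37376302-37376421, plus strand): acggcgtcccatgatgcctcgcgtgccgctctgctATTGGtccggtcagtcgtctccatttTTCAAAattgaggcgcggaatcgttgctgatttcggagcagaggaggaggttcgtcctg
Kif15 (chr9:122951001-122951120, plus strand): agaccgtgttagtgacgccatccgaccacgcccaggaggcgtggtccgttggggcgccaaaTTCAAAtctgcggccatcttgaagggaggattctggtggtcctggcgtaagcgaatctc
Kif22 (chr7:127042381-127042500, minus strand): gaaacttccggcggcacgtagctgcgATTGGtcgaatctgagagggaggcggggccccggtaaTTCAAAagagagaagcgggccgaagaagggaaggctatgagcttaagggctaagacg
Kif18b (chr11:102925085-102925204, minus strand): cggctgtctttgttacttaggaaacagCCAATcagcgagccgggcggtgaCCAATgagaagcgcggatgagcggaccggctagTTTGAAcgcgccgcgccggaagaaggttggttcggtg
Kif20b (chr19:34922278-34922397, plus strand): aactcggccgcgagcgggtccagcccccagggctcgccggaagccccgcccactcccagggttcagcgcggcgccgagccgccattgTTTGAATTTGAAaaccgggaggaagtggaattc
Kif23 (chr9:61946760-61946879, minus strand): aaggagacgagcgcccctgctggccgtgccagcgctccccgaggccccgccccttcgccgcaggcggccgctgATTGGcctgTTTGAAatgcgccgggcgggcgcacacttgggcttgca
Kif4 (chrX:100625985-100626104, plus strand): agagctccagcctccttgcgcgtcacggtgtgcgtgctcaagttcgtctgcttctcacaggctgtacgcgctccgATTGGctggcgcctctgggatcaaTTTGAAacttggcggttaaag
Kifc1 (chr17:33890594-33890713, minus strand): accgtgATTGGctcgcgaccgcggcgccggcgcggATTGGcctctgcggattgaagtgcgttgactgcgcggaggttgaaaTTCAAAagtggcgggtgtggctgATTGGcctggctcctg
Kif18a (chr2:109280658-109280777, plus strand): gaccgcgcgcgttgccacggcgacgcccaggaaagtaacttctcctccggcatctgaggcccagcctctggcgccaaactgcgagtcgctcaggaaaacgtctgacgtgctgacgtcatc

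The CHR letters were present in 10 of 12 division windows (83.3%), against 17.9% of the 32851 windows of all genes and 3 of 24 windows (12.5%) of the other kinesins. Within 50 bases of the start they were in 8 of 12 division windows (66.7%), against 4.94% of all windows. In Kif11 and Kif15 the match began at base -19 and in Kif22 at -17, while in Kif23 (+3), Kifc1 (+2) and Kif18b (+4) it began just past the start, and Kif20b had 2 adjoining matches, at +8 and +14. Kif14 (-228) and Kif2c (-103) had a match farther upstream, and Kif18a and Kif2b had none. The RefSeq start lay far from the 5′ end given in the count table for Kif4 (328 bases), Kif14 (1505 bases) and Kif2c (3867 bases), so for these the window may not be the start used in these cells.

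The CCAAT letters were in 8 of 12 division windows (66.7%), against 37.4% of all windows, and both motifs stood together in 7 of 12 (58.3%), against 6.95%. No CHR match overlapped a CCAAT match. The letters GGCGGGAA, a form of the E2F site, were in 0 of 12 division windows, against 2.19% of all windows. The NF-κB consensus, searched because NF-κB is the main factor downstream of TNF-α, was in 1 of 12 (Kif23, at base -150), against 8.46% of all windows. Division windows had a median GC content of 60.2%, and all windows 52.7%. A match is a description of letters and not evidence of binding in these cells.

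**Figure D2:**
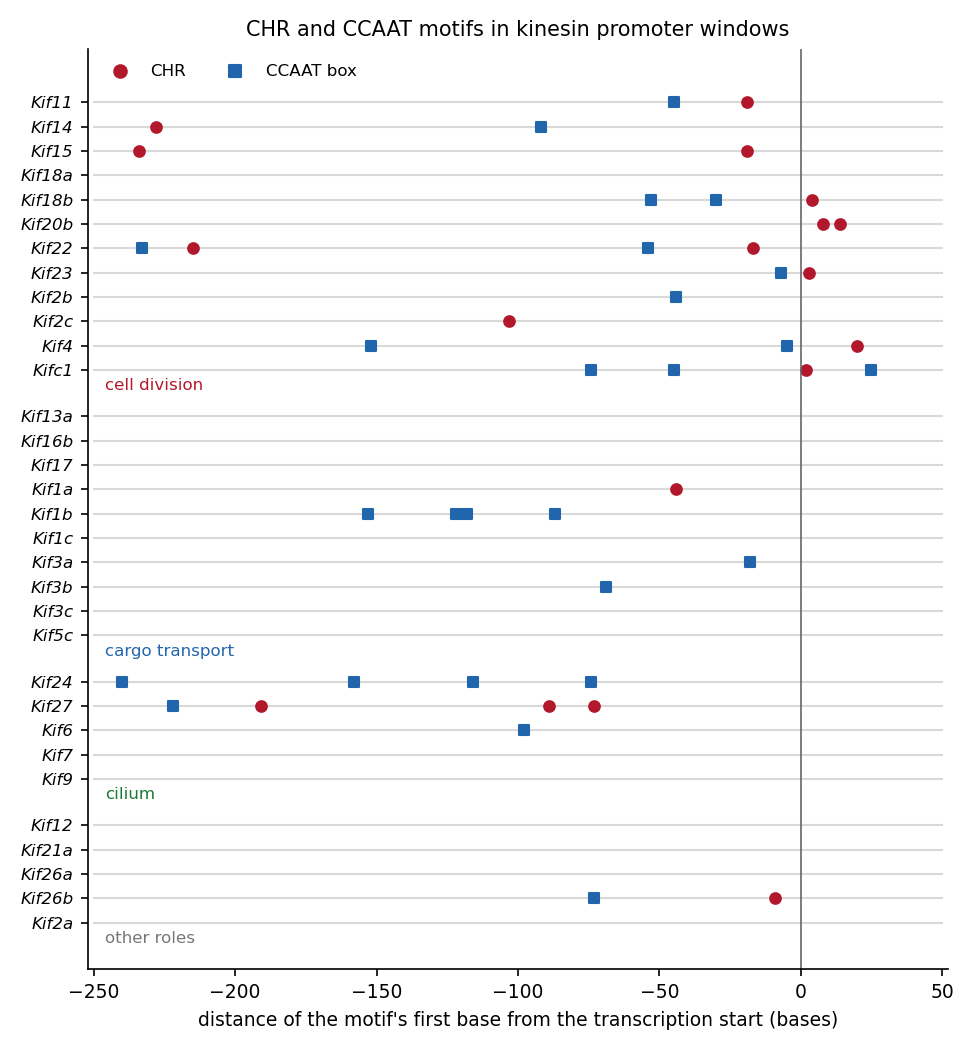
Positions of CHR and CCAAT matches in RefSeq promoter windows of kinesin genes, in bases from the annotated start, with 1 row for each of the 32 matched genes (windows of a gene drawn on 1 row) grouped by role. CHR matches of the division kinesins gather near the start, while the 24 windows of other kinesins hold CHR matches in 3.

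Cargo kinesins gave a different picture from the same start-site view. The same 120-base stretch is shown for 5 of them. The cargo kinesin of highest level (Kif1c), one that was lower with TNF-α (Kif13a) and one that was higher (Kif5c) held neither motif in it, while both kinesin-2 chains near a ratio of 0 (Kif3a and Kif3b) held the CCAAT letters.
Kif1c (chr11:70700468-70700587, plus strand): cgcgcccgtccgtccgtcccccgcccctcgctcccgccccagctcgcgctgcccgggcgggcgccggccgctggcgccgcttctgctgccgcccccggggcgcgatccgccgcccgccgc
Kif13a (chr13:46929679-46929798, minus strand): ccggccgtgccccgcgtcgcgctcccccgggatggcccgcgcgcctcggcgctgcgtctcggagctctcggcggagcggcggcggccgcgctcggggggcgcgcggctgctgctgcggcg
Kif5c (chr2:49619206-49619325, plus strand): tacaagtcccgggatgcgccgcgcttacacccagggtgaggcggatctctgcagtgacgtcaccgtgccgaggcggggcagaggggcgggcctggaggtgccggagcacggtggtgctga
Kif3a (chr11:53567289-53567408, plus strand): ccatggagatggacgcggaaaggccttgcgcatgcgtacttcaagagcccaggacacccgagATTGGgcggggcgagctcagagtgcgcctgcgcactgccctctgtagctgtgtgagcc
Kif3b (chr2:153291336-153291455, plus strand): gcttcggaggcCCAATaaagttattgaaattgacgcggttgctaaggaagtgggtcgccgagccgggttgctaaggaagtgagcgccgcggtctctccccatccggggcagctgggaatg

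The CHR letters were in 1 of 12 cargo kinesin windows (8.33%), at 1 of the 2 starts of Kif1a, against 17.9% of all windows. The CCAAT letters were in 4 of 12 (33.3%), close to the 37.4% of all windows. The cargo windows had a median GC content of 68.2%.

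As a group the cargo kinesins had a median log2 ratio of -0.32, with 11 of 15 below 0, where 49.4% of all genes were, and 4 above, of which Kif3b was at -0.0002 when scaled by total counts and at -0.0023 by the upper quartile. Their summed level was 397.6 RPKM in the control and 333.2 RPKM with TNF-α. The median of the division kinesins exceeded that of the cargo kinesins under each of the 10 alternative settings, by 1.21 to 1.24 on the log2 scale. Scaling by total counts, the upper quartile or DESeq2 shifts all ratios by nearly the same amount. These settings therefore could not change the difference, which was 1.22 in each.

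Kinesin-1, the motor that carries mitochondria and many vesicles, is built from 1 of 3 heavy chains, and the 3 chains had ratios of opposite sign. Kif5c (chr2:49619298-49774778) had 1342 counts in the control and 3374 with TNF-α, a log2 ratio of 1.07 (0.98 to 1.16). Kif5a (chr10:127225696-127263363) had 779 and 437 counts, a log2 ratio of -1.09 (-1.27 to -0.92). Kif5b, the heavy chain found in most tissues, had 27919 and 29438 counts, which after scaling is a log2 ratio of -0.18 (-0.21 to -0.16).

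The intervals of the 3 chains did not overlap. In RPKM, Kif5b made up 92.4% of the kinesin-1 heavy chains in the control and 88.0% with TNF-α, Kif5c 4.60% and 10.5%, and Kif5a 3.02% and 1.53%. In the control library Kif5c thus stood at 4.22 RPKM against 2.77 RPKM for Kif5a, and with TNF-α at 8.85 against 1.30 RPKM. Kif5a and Kif5c are best known from neurons. Of the 5 neuron markers, Rbfox3 had 8 counts in the control and 6 with TNF-α (log2 ratio -0.52), and Syt1 had 60 and 50 (-0.50). Snap25 had 152 and 216 (0.24) and Stmn2 had 44 and 330 (2.60). The 5 markers had a summed level of 84.6 and 85.5 CPM, most of it Map2 (3507 and 3962 counts, log2 ratio -0.08). Their part in the ratios of Kif5a and Kif5c was not tested.

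Kinesin-2, which drives traffic along cilia and also carries cargo in the cytoplasm, differed little. Kif3a had 4559 counts in the control and 5577 with TNF-α, a log2 ratio of 0.03 (-0.03 to 0.09), and Kif3b, its usual partner in the motor, had 6059 and 7288 counts, a log2 ratio of 0.01 (-0.04 to 0.06). Both intervals spanned 0. Kif3c, which can replace Kif3b, had 1817 and 2749 counts, a log2 ratio of 0.34 (0.25 to 0.42), with 38.2% of its exon bases shared with 1110002L01Rik on the opposite strand. Kif17, a homodimeric member, was rare, with 142 and 127 counts, a log2 ratio of -0.41 (-0.78 to -0.07).

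The 6 kinesin-3 members placed among the cargo kinesins, carriers of vesicles and endosomes, were all lower with TNF-α, against 49.4% of all genes. Kif14, a kinesin-3 by descent with a role in cytokinesis, was higher. Kif1c, a carrier of vesicles and integrins, was the kinesin of highest level, at 124.5 RPKM in the control and 93.6 RPKM with TNF-α (40361 and 36353 counts), a log2 ratio of -0.41 (-0.43 to -0.39). Kif13a, which moves recycling endosomes, had 13459 and 11642 counts (log2 ratio -0.47, -0.50 to -0.43), and Kif13b had 2275 and 1797 (log2 ratio -0.60, -0.69 to -0.51). Kif16b, a motor of early endosomes, had 10065 and 9604 counts (log2 ratio -0.33, -0.37 to -0.29).

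The 2 members best known from axons were also lower. Kif1b, which carries mitochondria and synaptic vesicle precursors, had 10502 and 10091 counts (log2 ratio -0.32, -0.36 to -0.28). Kif1a had 3999 and 4146 counts (log2 ratio -0.21, -0.27 to -0.14). Of these 6, only Kif13b was past 1.5-fold lower, at a fold of 0.66.

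Minus-end cargo kinesins were lower too. Kifc3, which acts at cell junctions and the Golgi, had 4489 counts in the control and 4302 with TNF-α (log2 ratio -0.32, -0.38 to -0.26). Kifc2 had 288 and 232 counts (log2 ratio -0.57, -0.83 to -0.32).

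**Figure D3:**
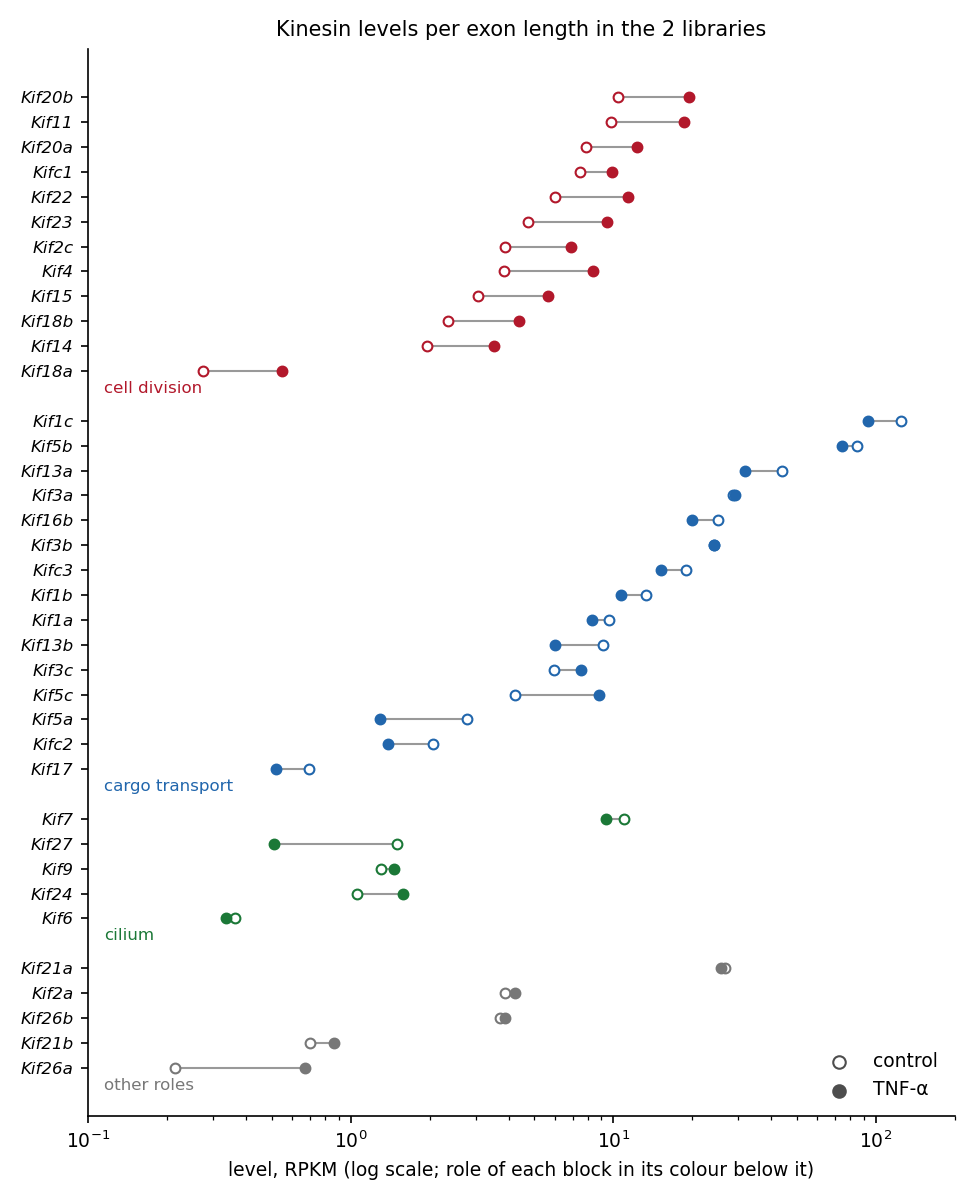
Level of each of the 37 kinesins in RPKM on a log axis, with an open circle for the control library and a filled circle for the TNF library, 1 row per gene, coloured by role. The filled circle lies to the right in all 12 division kinesins, whose control levels run from 0.274 RPKM (Kif18a) to 10.4 RPKM (Kif20b), and Kif1c is the highest at 124.5 RPKM in the control.

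The makeup of the kinesin family differed accordingly. Of the summed RPKM of all kinesins, division members held 12.1% in the control and 22.5% with TNF-α. Cargo members held 78.0% and 67.6%, cilium members 2.98% and 2.71% and the others 6.90% and 7.20%. The summed level of the family was 509.7 RPKM in the control and 492.6 RPKM with TNF-α, so the kinesin total differed far less than its makeup.

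**Figure D4:**
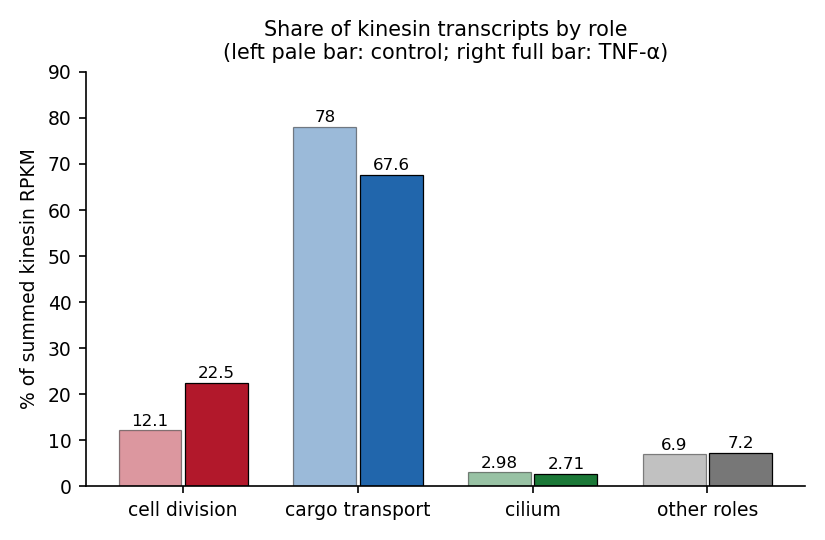
Share of the summed kinesin RPKM held by each role, in percent, with a pale bar for the control library and a full bar for the TNF library. The division share is 12.1% in the control and 22.5% with TNF-α, and the cargo share is 78.0% and 67.6%.

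Cilium kinesins had no common direction. Kif27 (chr13:58287516-58354862), related to the Hedgehog regulator Kif7 and known from motile cilia, had 299 counts in the control and 122 with TNF-α, a log2 ratio of -1.54 (-1.87 to -1.24), the lowest of all kinesins. Kif24, which holds back the outgrowth of cilia in cycling cells, had 378 and 679 counts, a log2 ratio of 0.58 (0.40 to 0.77). Kif7 had 2236 and 2301 counts, a log2 ratio of -0.22 (-0.30 to -0.13), with 19.1% of its exon bases shared with 9330171B17Rik on the opposite strand.

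The 2 remaining members were rare and near 0. Kif9, of motile cilia, had 249 and 335 counts (log2 ratio 0.17, -0.07 to 0.41), and Kif6 had 97 and 108 (log2 ratio -0.10, -0.51 to 0.31). Of the 5 markers of cells with motile cilia, 2 had enough counts to compare. These were Foxj1 (326 and 267 counts, log2 ratio -0.54) and Rsph1 (191 and 206, log2 ratio -0.15, -0.44 to 0.14). Dnah5, a motor of the beating axoneme, had 0 counts in both libraries. The summed level of these markers was 11.7 CPM in the control and 9.07 CPM with TNF-α, and their part in the ratio of Kif27 was not tested.

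Among kinesins with other roles, Kif26a gave the highest ratio of the family. This member (chr12:112146208-112181747), which lacks motor activity and restrains growth factor signalling, had 66 counts in the control and 247 with TNF-α, a log2 ratio of 1.62 (1.25 to 2.06) or 3.07-fold, at a level of 0.214 and 0.669 RPKM. Its relative Kif26b had 2420 and 3036 counts, a log2 ratio of 0.07 (-0.01 to 0.15). The interval of Kif26a thus lay wholly above that of its relative.

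The others were close to the typical gene. Kif21b had 381 counts in the control and 560 with TNF-α (log2 ratio 0.29, 0.11 to 0.49), and Kif21a, which slows microtubule growth, had 7694 and 8921 (log2 ratio -0.05, -0.09 to -0.002). Kif2a, a microtubule depolymerase with roles in and out of mitosis, had 1219 and 1588 counts (log2 ratio 0.12, 0.01 to 0.23), with 17.4% of its exon bases shared with Dimt1 on the opposite strand. Kif2a is a relative of the division kinesin Kif2c, whose interval lay wholly above it.

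Genes that work with the division kinesins were higher together with them. Of 23 partners and regulators, 23 lay above 0, against 50.6% of all genes, their median ratio was 0.88 on the log2 scale, and 7 were past 2-fold, against 8.56% of all genes. These 7 were Cdk1 (log2 ratio 1.32), the kinase that starts mitosis, its cyclin Ccnb1 (1.19), Top2a (1.14), Ect2 (1.13), Aurkb (1.05), Plk1 (1.04) and Cep55 (1.04). Cdk1, the highest, had 837 counts in the control and 2497 with TNF-α, and Aurka, the lowest, had 1071 and 1970, a log2 ratio of 0.62.

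Direct partners of single motors were higher too, but not always to the same degree as the motor. Racgap1, the partner of Kif23 in centralspindlin, had a log2 ratio of 0.72 (0.64 to 0.81), below the interval of Kif23. Prc1, which works with Kif4, had 0.86 (0.80 to 0.92), below the interval of Kif4, and Aurkb, which Kif20a brings to the midzone, had 1.05 (0.85 to 1.26), above the interval of Kif20a. With halved counts the intervals of Aurkb (from 0.77) and Kif20a (to 0.78) overlapped. Tpx2, which brings Kif15 to the spindle, had 0.84 (0.78 to 0.89), an interval that overlapped that of Kif15. Mki67, a marker of cycling cells, had 25452 counts in the control and 59721 with TNF-α, a log2 ratio of 0.97 (0.95 to 0.99). Cenpe, a kinesin of the kinetochore that the naming rule leaves out, had 4798 and 10840 counts (log2 ratio 0.92, 0.87 to 0.97). In RefSeq, the CHR letters were in 17 of 23 partner windows (73.9%), against 17.9% of all windows. Those 23 windows came from 20 of the partner genes, of which 14 had a match.

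Genes that work with the cargo kinesins were mostly lower, as the cargo kinesins were. Of the light chains, other subunits and cargo adaptors of kinesin-1, -2 and -3, 14 of 19 were below 0, against 49.4% of all genes. The interval lay wholly below 0 in 13 of them, and in 5777 of the 20771 genes compared. The median log2 ratio of the 19 was -0.14. None of them was past 2-fold in either direction, where 8.56% of all genes were higher and 6.62% lower by that fold. The lowest of the 19 was Borcs5, a subunit of the complex that links lysosomes to kinesin, with 162 and 119 counts (log2 ratio -0.69). The highest was Mapk8ip2, a scaffold with only 8 and 14 counts (log2 ratio 0.46). The kinesin-1 light chain Klc1 had 12607 and 14136 counts (log2 ratio -0.09). The CHR letters were in 1 of 21 windows of these genes (4.76%), against 17.9% of all windows. Those 21 windows came from 16 genes.

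Intraflagellar transport genes, whose products are the cargo trains that kinesin-2 pulls, had a median log2 ratio of -0.0002 over 21 genes. None of them was past 2-fold, where 8.56% of all genes were higher and 6.62% lower by that fold. The 21 genes ranged from Traf3ip1 (6634 and 4600 counts, log2 ratio -0.79) to Ift46 (717 and 1113 counts, log2 ratio 0.37). Cytoplasmic dynein and dynactin, the machinery that walks the other way, had a median of 0.03 over 27 genes. Their highest was the light chain Dynlt1a (164 and 380 counts, log2 ratio 0.94) and their lowest the intermediate chain Dync1i1, past 2-fold lower on 33 and 11 counts (log2 ratio -1.66, -2.98 to -0.82). Dync1h1, the dynein heavy chain, had 43037 and 41839 counts (log2 ratio -0.30).

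**Figure D5:**
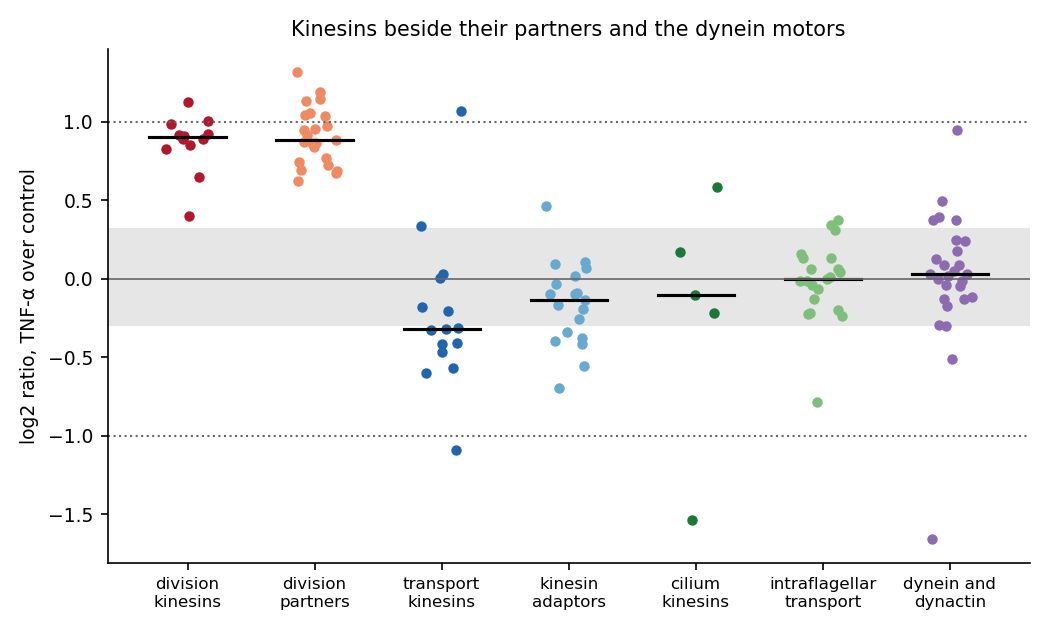
Log2 ratios of TNF to control for division, cargo and cilium kinesins beside their partner lists, intraflagellar transport genes and dynein genes; each point is 1 gene, its sideways place has no meaning, the black line is the median of its list, the grey band holds the middle 50% of all genes and dotted lines mark 2-fold. Division kinesins and their partners have medians of 0.90 and 0.88, while the lists of cargo adaptors, intraflagellar transport and dynein lie at -0.14, -0.0002 and 0.03.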

How the data were processed

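RNA-seq counts from 2 libraries of mammary basal cell colonies (1 control, 1 TNF-α) were analysed. The authors deposited read counts per gene, not normalized, with exon coordinates, strand and summed exon length; the labels name GRCm38/mm10, and the aligner, counting tool and use of strand are not given in the sources used here. All 40 members were in GENCODE M21 by name, 31 with identical coordinates. Low counts were mostly even (618 genes with 1 count and 2172 with 2 in the control), a pattern seen when both read ends are counted, which would widen the intervals.

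Library sizes were scaled by TMM in edgeR 4.0.16 (R 4.3.3) on genes with at least 10 summed counts. Ratios used CPM with a prior count of 2 and were put on the log2 scale. RPKM was computed from the deposited counts and the deposited exon length of each gene (held as a score, in bases). Intervals are 95% Clopper-Pearson intervals of the TNF share of a gene's counts, turned into ratios. They cover counting error only, since each group had 1 library. PCR copies of 1 molecule were not marked, and any such copies would make the intervals too narrow. A count of 10 is worth 0.225 CPM in the control and 0.187 CPM with TNF-α, and 3 counts were taken as the floor for a count of 0. With 1 library per group no test was made. Where nothing else is said, 2 values joined by "and" are control and then TNF.

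Values are given for each division kinesin, for other kinesins past 2-fold or with at least 200 summed counts, and for the ends of each partner list and its members past 2-fold; other partners and the markers were named after their values were seen. Members and lists were chosen with earlier results of these data known. Alternatives were total counts, upper quartile and DESeq2 1.42.0 size factors, other filters, prior counts and folds, thinned and halved counts, and a lowess correction on gene length (span 0.3). Intervals were computed with scipy 1.17.1 and the lowess curve with statsmodels 0.14.6, in Python 3.11.15. Scripts were tested on simulated data.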

Additional observations from a re-analysis of the deposited data

How the results depend on the processing

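The number of division kinesins more than 2-fold higher was 2, and was 1 with total counts or upper quartile scaling and 11 at a fold of 1.5, where the kinesins as a whole gave 13. Over all genes, 1777 were higher and 1375 lower by more than 2-fold; without a filter these were 2679 and 2996, with a filter of 1 CPM in 1 library or more 836 and 658, and at a fold of 1.5 they were 3210 and 2846. The median log2 ratio of the division kinesins ran from 0.89 to 0.95 over 10 alternatives and that of the cargo kinesins from -0.33 to -0.28. Of 370 values of single kinesins, 364 moved by less than their counting interval, 6 moved by more, each under the correction on gene length (Kif1c to -0.36, Kif13a to -0.42, Kif21a to -0.0006, Kif5b to -0.14, Kif16b to -0.28 and Kif1b to -0.23). The sign changed in 2 of the 370, both of Kif3b, whose interval spans 0 (0.01, against -0.0002 with total counts and -0.0023 by the upper quartile). The median of the cilium kinesins ran from -0.11 to 0.03, so its sign depended on the setting. No paired analysis was possible because there was only 1 control and 1 TNF library. With halved counts the intervals of Kif17, Kif2a and Kif21a also spanned 0. Depth limits what can be said of Kif6, Kif26a, Kif17, Kif18a, Kif27, Kifc2 and Kif9, whose intervals are the widest, and of Kif2b, Kif12 and Kif19a, which were at or near 0.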

Other observations

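Some kinesin genes carry names that the naming rule leaves out. Stard9, a large kinesin of the centrosome in mitosis, did not share the ratio of the division kinesins, with 784 counts in the control and 843 with TNF-α, a log2 ratio of -0.15 (95% interval -0.30 to -0.01).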
